A study of Mus musculus with 15 samples.

Results

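The nuclear factor I (NFI) family and Etv1 were followed as 5 listed genes, Nfia, Nfib, Nfic, Nfix and Etv1, out of 21889 genes in the gene count table. All 5 passed the filter on low counts. RNA-seq of poly(A) RNA was available for 15 mouse cerebellar libraries, 3 in each of 5 groups. The label granule neuron precursors, the dividing cells that produce cerebellar granule neurons, covers libraries of every age. They came from Math1-GFP mice at embryonic stage E15.5 and from wild-type (WT) mice at postnatal days 1, 7 and 14 (P1, P7 and P14). The fifth group was medulloblastoma cells (MB) from Ptch1 heterozygous mice, a model in which tumours of the granule cell lineage arise in animals with 1 mutated copy of the Sonic hedgehog receptor gene. The labels give the tumours no age. All groups were purified on Percoll, a density gradient that enriches small dense cells without selecting a cell type. Age and genotype change together between E15.5 and P1 and cannot be told apart. The labels do not say whether the replicates came from separate animals, so p-values measure the spread between these libraries, which may be technical.

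NFI proteins bind DNA as dimers at the palindrome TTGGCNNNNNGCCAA or at its TTGGC core, and in the cerebellum they act in postmitotic granule neurons, where they promote axon extension, migration, dendrite formation and genes of the mature neuron such as Gabra6. Etv1 is an ETS-domain activator of the PEA3 group. In granule neurons its expression depends on activity and on the neurotrophin BDNF, and it drives late genes such as Grin2c. NFI proteins are also made in astroglia, where Nfia starts gliogenesis.

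The libraries held 12597472 to 43443132 counts in genes. Summed levels of 6 granule precursor markers were 2516 to 5778 CPM over the 12 libraries labelled as precursors and 3268 to 4072 CPM in MB. CPM are counts scaled to library size, with TMM normalization. None of the 6 markers was at 0. Atoh1, the defining factor of dividing precursors, was at 124 to 138 CPM at E15.5, 24.5 to 65.4 at P1, 23.6 to 39.1 at P7, 10.9 to 13.1 at P14 and 236 to 322 in MB. Atoh1 at P14 was thus below its level in every younger library, and the P14 libraries are precursors by their label only. Markers of other cells were present as well and moved with age. The sum of 10 astroglial markers ran from 394 to 523 CPM at E15.5. P1 libraries had 3119 to 4657 CPM, P7 libraries 2380 to 4595, P14 libraries 4122 to 5332 and MB 1916 to 2229. The sum of 10 oligodendrocyte markers was 64.0 to 81.8, 345 to 4338, 918 to 2049, 6940 to 7553 and 166 to 415 CPM in the same order. In both lists no marker was at 0 throughout a group. P1 replicate 3 stood apart from the other P1 libraries, with the 4338 CPM of oligodendrocyte markers against 345 and 849 CPM. The sum of 4 choroid plexus markers was 25.7 to 286 CPM at E15.5, 13.5 to 1961 at P7, 5098 to 8463 at P14 and 34.6 to 190 in MB. At P1 it was 10263 CPM in replicate 2, against 294 and 3876 in replicates 1 and 3. Markers of GABAergic interneurons summed to 371 to 468 CPM at E15.5, 142 to 197 at P1, 166 to 254 at P7, 81.6 to 126 at P14 and 1.48 to 2.94 in MB. The gene table also lacks nearly all reads of some genes in 6 libraries (E15.5 replicates 1 and 3, all of P7, MB replicate 1), as read from Tsnax. For the 5 genes followed here, the gene table held a share of the transcript table's reads that overlapped between those 6 libraries and the other 9 (for Nfia 95.6% to 98.4% against 96.9% to 97.9%).

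Expression of all 4 NFI genes was lowest in E15.5 precursors, rose 2.53-fold to 3.87-fold by P1, and was not called different between neighbouring ages after that. MB cells were called different from the P7 or P14 libraries in no NFI gene. Etv1 followed another course, with its lowest mean at P7 and its highest at P14, and in MB it lay below P14.

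Nfia, counted over chromosome 4 from 97444299 to 97785562 on the plus strand (mm9), was at 284.9, 278.3 and 125.3 CPM in the E15.5 libraries. The P1 libraries held 827.6, 611.8 and 929.6 CPM, the P7 libraries 491.2, 425.7 and 1105.0, and the P14 libraries 1102.9, 595.5 and 745.6. In MB the values were 956.3, 886.6 and 1426.0 CPM. Every E15.5 library lay below every other library, while the 4 later groups overlapped. The share of all genes that separate E15.5 in this way was not counted, here or for the other NFI genes. From E15.5 to P1 the mean went from 230 ± 90 to 790 ± 162 CPM (SD, n = 3), a log2 fold change of 1.78 with a standard error (SE) of 0.39 and an adjusted p (false discovery rate, FDR) of 0.00193 in edgeR's quasi-likelihood test with Benjamini-Hochberg adjustment over all genes tested.

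Nfib is the second NFI gene on chromosome 4 (81936077 to 82151674, minus strand, mm9). Its levels were 662.9, 680.6 and 480.0 CPM at E15.5, 1561.7, 1245.4 and 1805.9 at P1, 1575.8, 1228.0 and 2129.9 at P7, and 1994.6, 1210.5 and 1473.3 at P14. MB libraries had 1649.1, 1221.4 and 2002.0 CPM. The E15.5 libraries again stood below all others without overlap, and the means of the 4 later groups differed little, at 1538 ± 281, 1645 ± 455, 1559 ± 399 and 1624 ± 391 CPM (SD, n = 3) for P1, P7, P14 and MB. The rise from E15.5 to P1 was 1.34 on the log2 scale (SE 0.27, FDR 0.00109, edgeR).

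Nfic, on chromosome 10 (80858931 to 80889932, minus strand, mm9), had 59.6, 69.8 and 29.8 CPM at E15.5 and 153.2, 138.7 and 225.3 at P1. It had 243.6, 208.8 and 486.6 CPM at P7, 325.3, 227.0 and 275.9 at P14, and 198.0, 382.7 and 472.6 in MB. The E15.5 libraries lay below all others. The 3 P14 libraries lay above the 3 P1 libraries, the highest P1 value being 225.3 and the lowest P14 value 227.0 CPM. What share of all genes separates P14 from P1 was not counted. The log2 change was 1.70 from E15.5 to P1 (SE 0.39, FDR 0.00240, edgeR). From P1 to P14 it was 0.68 with an FDR of 0.263, which became 0.66 with an FDR of 0.0427 among the 9 libraries without the counting deficit.

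Nfix, on chromosome 8 (87228611 to 87297295, minus strand, mm9), had the largest fold change of the NFI genes between E15.5 and P7, 7.51-fold. It was at 183.1, 183.2 and 90.2 CPM at E15.5, at 465.8, 439.9 and 858.9 at P1, at 1008.0, 771.9 and 1648.1 at P7, and at 1309.3, 831.6 and 1015.6 at P14. MB held 533.5, 1028.8 and 1344.3 CPM. E15.5 was below every later library, P1 overlapped P7 and P14 through its replicate 3, and MB overlapped P1 and both later ages. The change from E15.5 to P1 was 1.95 on the log2 scale (SE 0.40, FDR 0.00117, edgeR), and from E15.5 to P7 it was 2.91 (SE 0.42, FDR 7.98e-05), in a contrast where the 4 NFI genes and 37.8% of all genes were called. From P1 to P7 the difference of 0.96 was not called (FDR 0.188; the 95% interval of the fold is 1.09 to 3.46 before adjustment over genes).

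**Figure D1:**
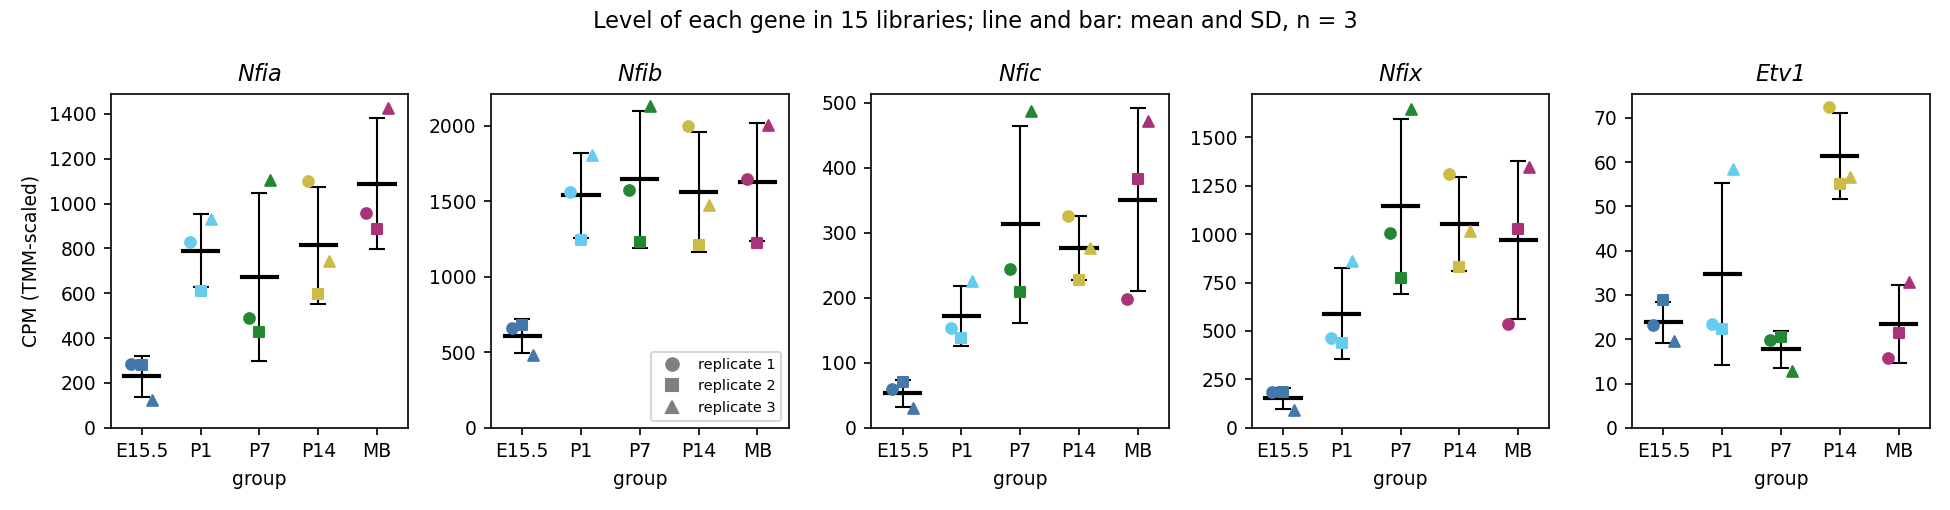
Level of each of the 5 genes (y axis, TMM-scaled CPM, each panel on its own scale from 0) in each library by group (x axis). Points are the 3 libraries of a group, marked by replicate number, and the black line and bar are the mean and SD. The 4 NFI genes have their 3 lowest libraries at E15.5, and Etv1 has its highest mean, 61.4 CPM, at P14. The share of all genes with their 3 lowest libraries at E15.5 was not counted.

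In P1 against E15.5, 4 of the 5 members were called, all higher, beside 46.3% of all genes tested called in either direction and 25.4% called higher. The median log2 change of the 4 NFI genes was 1.74, and that of all genes tested was 0.03. Astroglial, oligodendrocyte and endothelial markers rose over the same step (for endothelium from 10.6 to 28.9 CPM at E15.5 to 347 to 521 at P1), and their part in the NFI rise was not tested. From E15.5 to P1 all 10 astroglial markers were called higher (median log2 3.82). In MB against E15.5, 7 of the 10 were called higher and 1 lower (median 2.93), and the NFI genes stood at 1.42 (Nfib), 2.25 (Nfia), 2.67 (Nfix) and 2.73 (Nfic) log2 units above E15.5. Endothelial markers summed to 16.7 to 30.1 CPM in MB. In these bulk libraries, fewer cells of a type and less RNA per cell cannot be told apart.

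All 4 NFI genes were called in MB against E15.5, where 50.1% of genes tested were called. Among the 9 libraries without the counting deficit, 1 of them from E15.5, the P1 rise was 1.50 for Nfia, 1.17 for Nfib, 1.30 for Nfic and 1.68 for Nfix. Over the 6 libraries with the deficit, P7 exceeded E15.5 by 1.69, 1.51, 2.79 and 3.04 in the same order.

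Etv1, on chromosome 12 (39505967 to 39594802, plus strand, mm9), was at 23.2, 28.8 and 19.6 CPM at E15.5, 23.5, 22.3 and 58.5 at P1, and 19.8, 20.5 and 12.9 at P7. It was at 72.5, 55.1 and 56.6 CPM at P14 and at 15.8, 21.3 and 33.0 in MB. The P14 libraries were above all libraries of E15.5, P7 and MB. P1 replicate 3, at 58.5 CPM, was the only library of another group within the P14 range. For how many of all genes P14 separates in this way was not counted. The mean went from 17.7 ± 4.2 CPM at P7 to 61.4 ± 9.6 at P14 (SD, n = 3), a log2 change of 1.79 (SE 0.36, FDR 0.0109, edgeR). Leaving out P7 replicate 2 gave a change of 1.91 with an FDR of 0.0524. Against E15.5, P14 was higher by 1.37 (FDR 0.00523), and there all 5 members and 50.9% of all genes were called. All P7 libraries and no P14 library have the counting deficit, so the counting set and the age cannot be told apart in P14 against P7. For Etv1 the gene table's share of the reads over Etv1-201 overlapped between the sets, at 61.9% to 70.5% with the deficit and 63.0% to 71.8% without it.

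Etv1 was the only member called in P14 against P7, where 10.3% of genes tested were called and 5.81% were called higher. In P14 against P1 no member was called, against 8.94% of all genes. For Etv1 the difference was 0.82 (FDR 0.148), and without P1 replicate 3 by 1.42 (FDR 0.00617, edgeR). In P7 against P1, where 3.15% of all genes were called, again no member was, with -0.97 for Etv1 (FDR 0.144), which was -0.37 (FDR 0.527) without P1 replicate 3. Among the postnatal ages, oligodendrocyte markers were high in the same libraries as Etv1. They were at 6940 to 7553 CPM in P14, 4338 in P1 replicate 3 and 345 to 2049 in the other 5. Their part in the Etv1 values was not tested. The sum of 3 granule neuron markers was also highest in P14, at 933 to 973 CPM, and next in P1 replicate 3, at 604. It was 432 to 563 CPM at P7, where Etv1 had its lowest mean, and 117 and 139 in P1 replicates 1 and 2.

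The transcript table lists 6 transcripts of Etv1. Reads over the short Etv1-206 came to 22.1% to 24.6% of those over the long Etv1-201 at P1 and 22.0% to 25.7% at P14, against 32.3% to 38.7% at E15.5, 25.8% to 43.4% at P7 and 29.1% to 34.0% in MB. The share was thus lower in the P1 and P14 libraries than in all others, with P7 replicate 1 (25.8%) next to the highest P14 library (25.7%). This difference was not tested. Reads shared by transcripts were counted for every one of them, so these shares describe coverage along the gene and not amounts of isoforms. Etv1-201 itself gave 1.69 for P14 against P7 (FDR 0.0117, edgeR on the transcript table), and Etv1-206 gave 1.07 (FDR 0.0645).

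MB against P7 compares the tumour cells with precursors at the peak of their expansion. No member was called, against 34.5% of all genes. The fold of MB over P7 was 1.62 for Nfia (95% interval 0.918 to 2.85), 0.988 for Nfib (0.665 to 1.47), 1.12 for Nfic (0.644 to 1.95), 0.848 for Nfix (0.479 to 1.50) and 1.32 for Etv1 (0.782 to 2.22). These intervals leave room for differences of up to 2-fold or more in Nfia, Nfix and Etv1. Nfia was called without P7 replicate 3, at 1.25 on the log2 scale (FDR 0.0199, edgeR). That library holds 1105.0 CPM against 491.2 and 425.7 in the others. Over the 6 libraries with the counting deficit, where MB has 1 library, MB against P7 gave -0.61 for Nfic and -1.05 for Nfix.

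MB against P14 gave 1 called member, Etv1, which was lower by a log2 change of -1.39 (SE 0.36, FDR 0.00442, edgeR), beside 50% of all genes called and 27.2% called lower. The highest MB library, at 33.0 CPM, was below the lowest P14 library, at 55.1. What share of all genes separates MB from P14 was not counted. Without the libraries with the counting deficit the Etv1 change was -1.16 (FDR 0.0366), and Nfic was called as well, 0.66 higher in MB (FDR 0.0328). Compared with P1 (38.7% of all genes called), MB had Nfic higher by 1.03 (FDR 0.0439), a call that was lost in 7 of 13 alternative analyses. Among the tumours, replicate 1 had the lowest Nfic and Nfix, at 198.0 and 533.5 CPM, but not the lowest Nfia or Nfib.

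**Figure D2:**
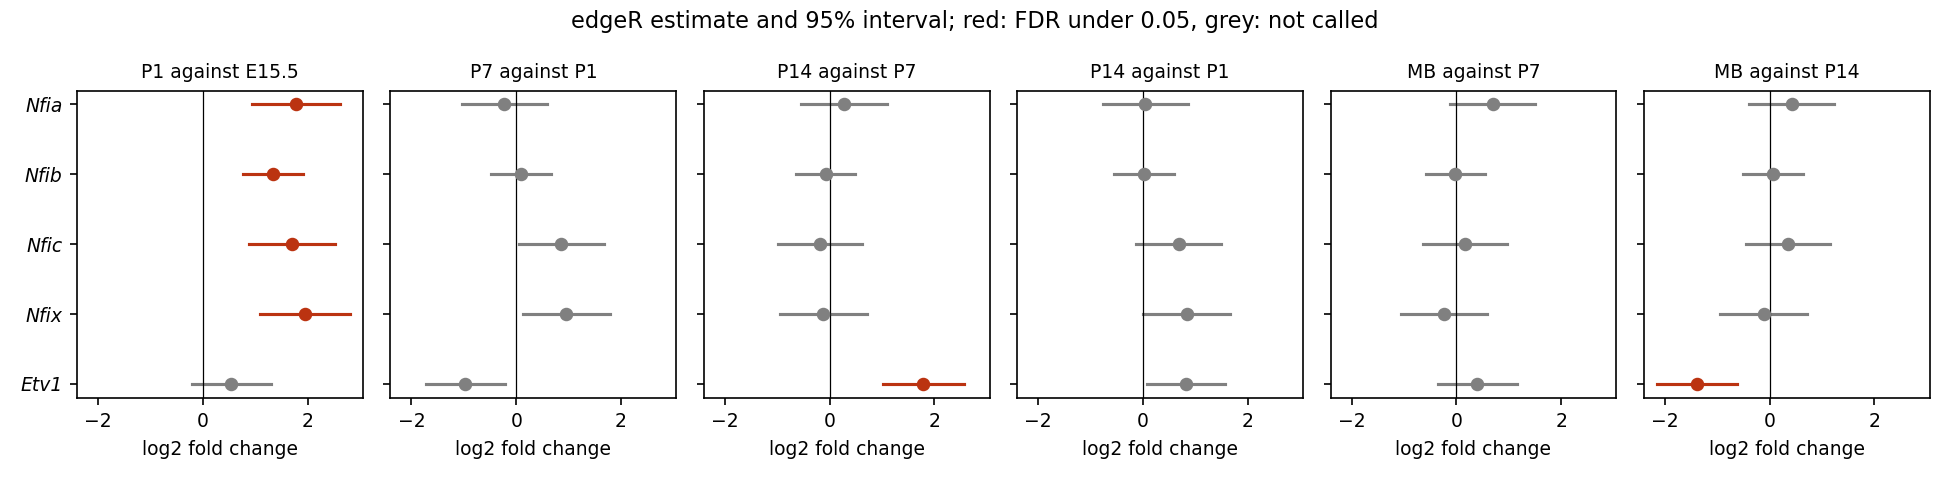
Log2 fold change of each gene (x axis) in 6 contrasts (panels), with the edgeR estimate as a point and its 95% interval as a line; red marks an FDR under 0.05 and grey marks genes not called. The NFI genes are called in the first panel, at 1.34 to 1.95, and Etv1 in P14 against P7 (1.79) and MB against P14 (-1.39).

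In order of level, the 5 groups ran MB, P14, P1, P7, E15.5 for Nfia, P7, MB, P14, P1, E15.5 for Nfib, MB, P7, P14, P1, E15.5 for Nfic and P7, P14, MB, P1, E15.5 for Nfix. In each of these orders only the last step, down to E15.5, was between neighbours that were called different. For Etv1 the order was P14, P1, E15.5, MB, P7, and no pair of neighbours was called. Tested for any difference among the 4 ages, all 5 genes were called (FDR 2.29e-04 for Nfix, 5.13e-04 for Nfic, 0.00178 for Nfib, 0.00271 for Etv1 and 0.00519 for Nfia, edgeR), beside 55.7% of all genes.

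The 4 NFI genes held unequal parts of the family's summed level. On the scale of CPM per kilobase of exon, which allows levels of different genes to be compared, they summed to 126 ± 35 at E15.5 and 385 ± 94 at P1 (SD, n = 3). The P7 libraries reached 508 ± 194, the P14 libraries 491 ± 122 and MB 524 ± 146. Nfib made up 53.2% of this sum at E15.5 (49.6% to 60.2% over libraries), 43.7% at P1, 36.0% at P7 and 34.4% at P14. Nfix made up 21.6% at E15.5 (19.1% to 23.1%), 27.4% at P1, 40.9% at P7 (40.0% to 41.5%) and 39.3% at P14 (38.4% to 39.8%).

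Nfib thus held the largest share in all 3 E15.5 libraries and Nfix in all 6 libraries of P7 and P14, with no overlap of either gene's share between E15.5 and those 2 ages. Nfia held 18.6% at E15.5, 21.7% at P1, 13.4% at P7 and 17.2% at P14, and Nfic 6.58%, 7.17%, 9.68% and 9.12%. MB libraries differed among themselves, with Nfib at 27.9% to 43.8% and Nfix at 23.9% to 39.6%. The differences in share were not tested. The shares depend on exon lengths taken from 1 transcript each for Nfia, Nfic and Nfix and from 2 for Nfib.

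**Figure D3:**
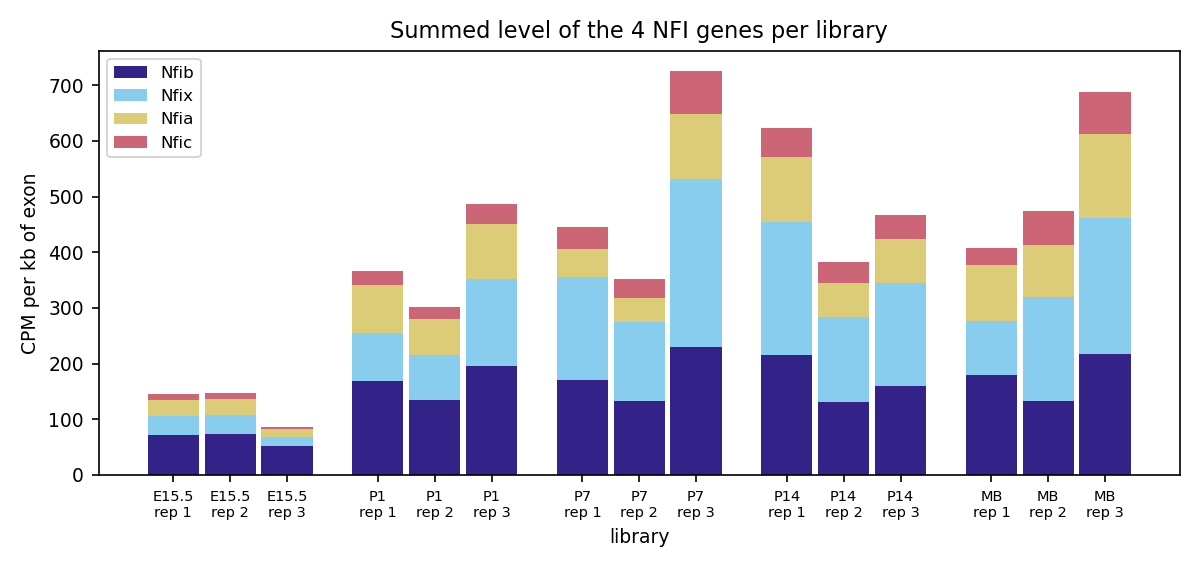
Summed level of the 4 NFI genes (y axis, CPM per kilobase of exon) in each library (x axis), with the part of each gene in colour. The 3 E15.5 libraries reach 86.4 to 148, and the other 12 reach 302 to 726, with a wider Nfix part at P7 and P14 than at E15.5.

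Within groups the NFI genes ranked the libraries much alike. In P1 and in P7 all 4 had replicate 3 highest and replicate 2 lowest. In P14 all 4 had replicate 1 highest and replicate 2 lowest. Replicate 3 was lowest for all 4 in E15.5 and highest for all 4 in MB. The lowest MB library was replicate 2 for Nfia and Nfib and replicate 1 for Nfic and Nfix. Etv1 had the NFI order in P1 and P14, with replicate 3 also lowest in E15.5 and highest in MB. In P7 it differed, with replicate 2 highest and replicate 3 lowest. How many other genes rank the libraries in this way was not counted. Deviations of log2 CPM from the group mean correlated across the 15 libraries with Pearson's r of 0.975 for Nfic and Nfix and 0.694 to 0.916 for the other NFI pairs, and of 0.25 to 0.58 for Etv1 with an NFI gene. These points share the library and its scaling, so the values are a description.

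The same deviations followed the share of a library's records that the counting program, HTSeq, assigned to no feature. It ranged from 14.1% (E15.5 replicate 3) to 29.2% (P7 replicate 3). The share is taken over all records, of which 22.9% (P14 replicate 1) to 44.6% (MB replicate 1) had multiple alignments. The sources used here do not say whether reads in introns fall in it. Pearson's r over the 15 libraries was 0.893 for Nfia, 0.842 for Nfic, 0.775 for Nfix and 0.670 for Nfib, values above those of 99.5%, 98.7%, 97.1% and 93.9% of all genes tested. For Etv1 it was 0.06, near the median of all genes of -0.06. The share was 14.1%, 20.4% and 24.6% in the E15.5 libraries and 22.3% to 23.8% in those of P1, and its part in the levels was not tested.

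**Figure D4:**
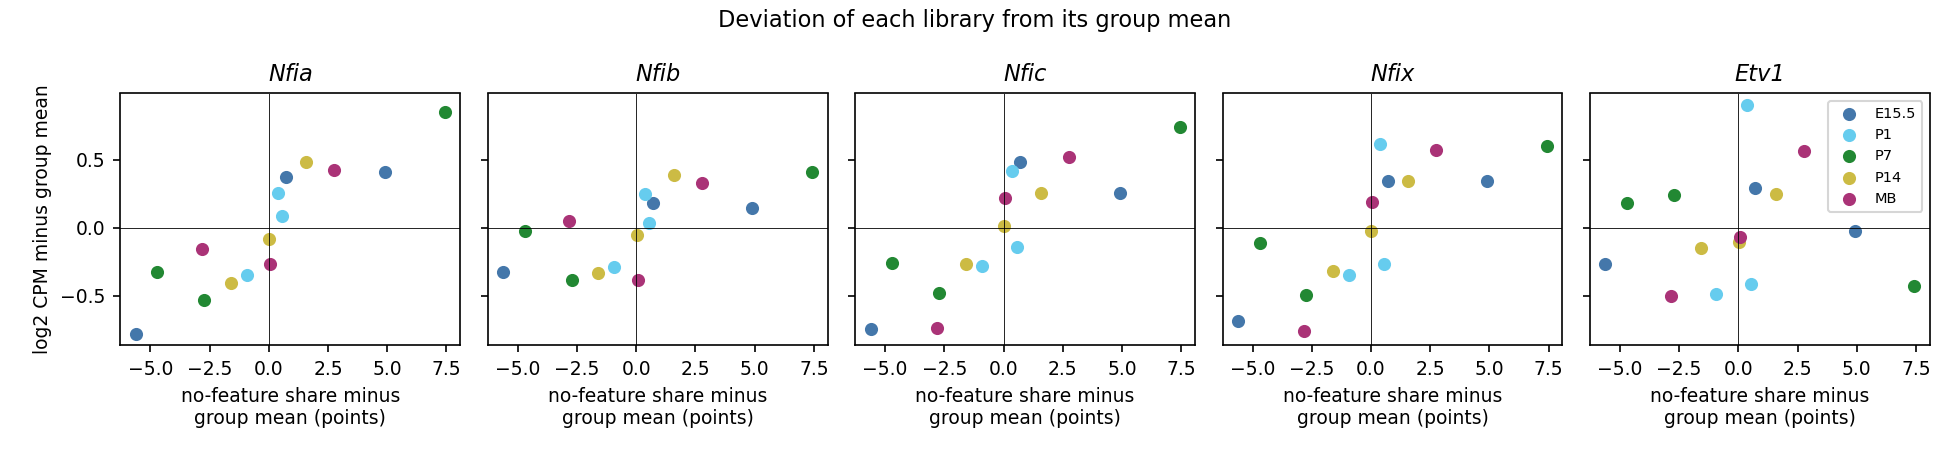
Deviation of each library from its group mean in log2 CPM (y axis) against its deviation in the share of records assigned to no feature (x axis, percentage points), 1 panel per gene and 1 point per library, coloured by group. Points of the 4 NFI genes climb from lower left to upper right (r 0.670 to 0.893), and those of Etv1 do not (r 0.06).

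Over all 15 libraries, Nfic and Nfix were each other's most similar gene among the 11575 genes whose mean reached 5 CPM, with r = 0.985 in log2 CPM. After Nfix, Nfic was most like Neurl1b (0.970) and Fam53b (0.970). Nfix was next most like Prkcb (0.982), a protein kinase C gene. For Nfia the most similar genes were Map3k20 (0.949), Bod1l (0.941) and Pptc7 (0.940), and for Nfib they were Heg1 (0.948), Gpr63 (0.944) and Nfia (0.939). Genes like Etv1 were Gm5454 (0.924) and Fgf14 (0.904), a regulator of sodium channels.

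Because Nfic and Nfix moved most alike, the 250 bases before 1 RefSeq start site of each are shown, with those of both Etv1 start sites, and of Gabra6 and Cntn2 as genes known to be driven by NFI. Sequences are from RefSeq on GRCm38.p6, a later build than the mm9 positions above, and are written 5′ to 3′ on the gene's strand. Capitals mark the NFI core TTGGC, or GCCAA where it lies on the other strand. Of 14 genes looked up 12 had an entry. Nfix has 4 RefSeq starts, and the one nearest the counted gene model is shown. The Nfic and Nfix starts shown lie 14 bases from the start of the counted model, and the first of Etv1 at the start of Etv1-201.
Nfic (chr10:81427174-81427423, minus strand): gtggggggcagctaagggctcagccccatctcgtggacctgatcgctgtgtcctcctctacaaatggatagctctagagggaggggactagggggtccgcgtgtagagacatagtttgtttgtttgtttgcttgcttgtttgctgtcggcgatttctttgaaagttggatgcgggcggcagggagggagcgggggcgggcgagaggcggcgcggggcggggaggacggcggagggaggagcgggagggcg
Nfix (chr8:84773411-84773660, minus strand): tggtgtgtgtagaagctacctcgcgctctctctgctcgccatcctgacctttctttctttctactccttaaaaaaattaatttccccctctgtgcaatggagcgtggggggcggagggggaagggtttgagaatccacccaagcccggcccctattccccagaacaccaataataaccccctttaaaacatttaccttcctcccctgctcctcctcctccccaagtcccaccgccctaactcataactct
Etv1, first start (chr12:38779832-38780081, plus strand): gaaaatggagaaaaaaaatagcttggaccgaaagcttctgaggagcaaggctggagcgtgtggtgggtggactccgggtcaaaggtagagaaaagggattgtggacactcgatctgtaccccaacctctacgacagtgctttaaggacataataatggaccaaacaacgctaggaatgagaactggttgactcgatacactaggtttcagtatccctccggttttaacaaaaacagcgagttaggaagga
Etv1, second start (chr12:38783461-38783710, plus strand): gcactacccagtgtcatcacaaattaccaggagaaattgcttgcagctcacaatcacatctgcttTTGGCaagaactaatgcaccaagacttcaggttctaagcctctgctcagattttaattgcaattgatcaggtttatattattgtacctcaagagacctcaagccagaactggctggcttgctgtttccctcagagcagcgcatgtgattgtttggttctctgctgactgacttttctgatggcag
Gabra6 (chr11:42321073-42321322, minus strand): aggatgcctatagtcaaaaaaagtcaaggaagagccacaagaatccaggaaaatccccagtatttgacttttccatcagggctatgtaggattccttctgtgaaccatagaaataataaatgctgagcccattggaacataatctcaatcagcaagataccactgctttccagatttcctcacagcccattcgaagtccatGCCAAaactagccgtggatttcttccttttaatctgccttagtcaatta
Cntn2 (chr1:132542941-132543190, minus strand): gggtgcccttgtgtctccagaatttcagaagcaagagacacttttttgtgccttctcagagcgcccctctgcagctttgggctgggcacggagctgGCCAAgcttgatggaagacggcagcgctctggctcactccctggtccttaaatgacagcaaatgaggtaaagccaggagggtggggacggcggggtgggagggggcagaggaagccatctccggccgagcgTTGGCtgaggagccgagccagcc

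The Nfic and Nfix sequences shown and the first Etv1 sequence hold no TTGGC on either strand, while 2 of the other 3 Nfix starts have 1 each. The second Etv1 sequence and that of Gabra6 hold 1 each, the latter from position -49 counted from the start site, and Cntn2 holds 2. The core occurs in 41.5% of 32851 promoter windows of this length, the palindrome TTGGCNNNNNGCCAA in 12 of them (0.04%), and the ETS motif CCGGAA in 3952 of them. None of the 6 sequences shown holds the palindrome or CCGGAA. A match is a description of letters and not a binding site.

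Genes tied to NFI or Etv1 in granule neurons were followed as a list of 9, of which 8 were tested and Itsn1 was not matched by symbol in the gene table. In P14 against P7, 2 of the 8 were called higher, beside 5.81% of all genes, and none lower, with a median log2 change of 0.53 beside -0.00499 for all genes. These were Gabra6, the GABA-A receptor subunit of mature granule neurons, at 10.3, 9.49 and 2.54 CPM at P7 and 160.6, 201.7 and 163.6 at P14 (log2 4.55, SE 1.11, FDR 0.0250, edgeR), and Grin2c, the late NMDA receptor subunit. Grin2c was at 6.40, 3.75 and 5.66 CPM at P7 and at 96.4, 98.7 and 112.0 at P14 (log2 4.28, SE 1.09, FDR 0.0252, edgeR).

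Gabra6 counts were 0 in each of the E15.5 libraries and 3047 over the P1 libraries, mostly from replicate 3 (101.7 CPM against 1.12 and 12.5). Summed over the group, P1 was at least 980-fold higher against a floor of 3 counts over the E15.5 group. This bound rests mostly on replicate 3 and is not one for each P1 library. Grin2c, in contrast, was at 32.7 to 47.9 CPM at E15.5 and 23.3 to 63.2 at P1, both above P7, as was the mean of Etv1. From P1 to P14 none of the 8 genes was called, beside 8.94% of all genes. Without P1 replicate 3, 4 were called higher, and the share of all genes called in that fit was not counted. From E15.5 to P1, Gabra6 was called higher and the ephrin ligand Efnb1 lower (log2 -1.16, FDR 0.0115), the latter at -0.98 (FDR 0.0523) without P1 replicate 3.

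MB had 5 of the 8 genes lower than P14, beside 27.2% of all genes, and none higher, with a median log2 difference of -2.33 beside 0.01 for all genes. They were Gabra6 (-8.28), Ephb1, an ephrin receptor gene (-3.51), Wnt7a, an axon-remodelling factor of granule neurons (-3.09), Grin2c (-2.71) and Cntn2, an axonal adhesion molecule (-1.95). Against P7, 4 were lower (Gabra6, Ephb1, Cntn2 and Wnt7a), beside 20.7% of all genes, and none higher, at a median of -1.08. Over these contrasts the NFI genes were not called. Tiam1, a Rac activator, the cadherin gene Cdh2 and Efnb1 were not called in either contrast. Grin2c differed among tumours, at 45.5 CPM in MB replicate 1 and at 0.757 and 0.921 in the others. Across the 15 libraries, r with Etv1 was 0.711 for Wnt7a, 0.651 for Gabra6, 0.585 for Tiam1, 0.528 for Cntn2, 0.501 for Grin2c and 0.435 for Ephb1. It was -0.148 for Efnb1 and -0.654 for Cdh2. With Nfix, r was 0.637 for Tiam1, 0.633 for Gabra6, 0.550 for Cntn2, 0.284 for Wnt7a and 0.089 for Ephb1. There it was -0.186 for Cdh2, -0.332 for Grin2c and -0.602 for Efnb1. These are descriptions of libraries that share age and cell content.

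**Figure D5:**
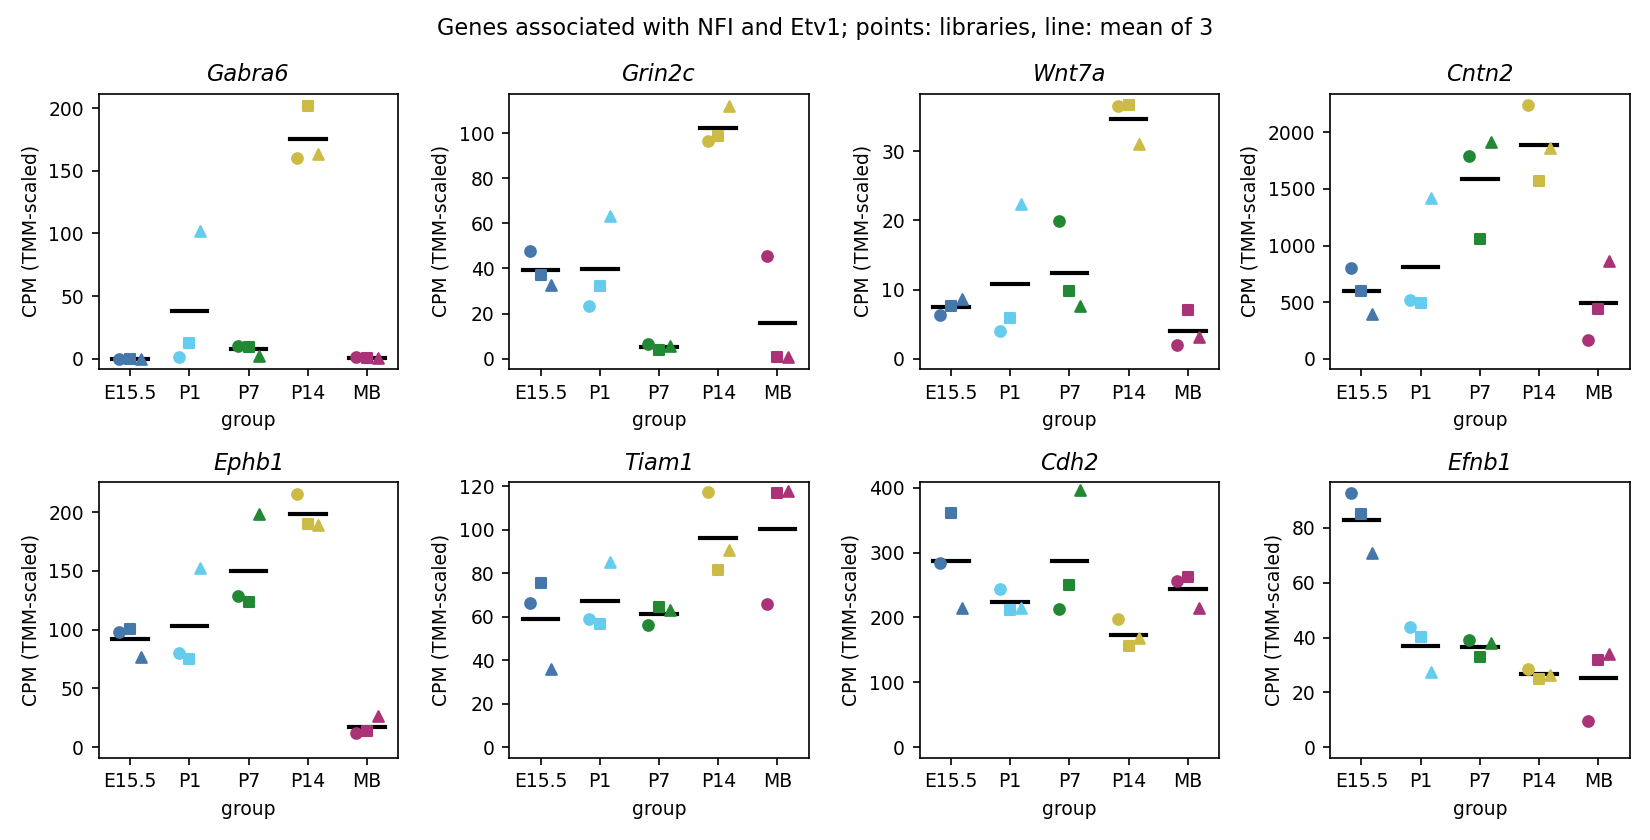
Level (y axis, TMM-scaled CPM, each panel on its own scale) of the 8 genes tied to NFI or Etv1 in each library by group (x axis); points are libraries and the black line is the mean of 3. Gabra6 and Grin2c reach 175 and 102 CPM on average at P14. Ephb1 is at 12.1 to 26.3 CPM in the 3 MB libraries, below all others, and the share of all genes lowest in MB in this way was not counted.

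Of 11 genes of the pathways upstream of Etv1 and NFI function (BDNF with its receptor gene Ntrk2, the ERK5 kinases, calcineurin and the NFAT factors), none was called in P7 against P1 or in P14 against P7. Without P1 replicate 3 the calcineurin gene Ppp3ca was called higher in P7 against P1 (log2 1.16, FDR 0.0209, edgeR; 0.74 with that library). In MB against P7, 2 were higher and 3 lower, beside the 34.5% of all genes called, and the called gene with the largest change was Nfatc4, a calcineurin-regulated factor, at 17.4 ± 2.8 CPM in P7 and 4.93 ± 2.74 in MB (log2 -1.81, FDR 0.00112, edgeR). Of the PEA3-group relatives of Etv1, Etv5 also had its lowest mean at P7. It fell from P1 to P7 (78.7 ± 10.6 to 37.9 ± 10.4 CPM, log2 -1.05, FDR 0.0337, edgeR), and was at 54.4 CPM at P14, with no call between P7 and P14. Etv4, like Etv1, was lower in MB than in P14, at 14.6 ± 6.3 against 34.7 ± 3.0 CPM (log2 -1.25, FDR 0.00221, edgeR). Unlike Etv1, it was also called lower in MB than at E15.5 (-1.33), P1 (-0.84) and P7 (-0.93). The call against P1 was lost without P1 replicate 3 (-0.76, FDR 0.0915, edgeR).

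Genes that overlap a member on the map were checked as well. E130114P18Rik lies on the strand opposite Nfia and overlaps its start by 441 bases. It was at 65.8 ± 10.1 CPM at E15.5, 59.3 ± 6.8 at P1 and 156 ± 77 in MB (SD, n = 3). It was not called in P1 against E15.5 (log2 -0.15, FDR 0.756, edgeR), and it was called higher in MB than at E15.5 (1.24), P1 (1.39) and P14 (1.50). Lyl1, which overlaps the end of Nfix by 4 bases, and G430095P16Rik, which lies inside Nfix on the other strand, were under 5 CPM on average in every group, and Lyl1 was called higher in P1 than at E15.5 (log2 2.96, FDR 1.31e-04, edgeR). G430095P16Rik had 146 to 2781 reads per library in the transcript table, against 31 to 120 in the gene table over each group of 3. Its gene-table level therefore leaves out most reads over it. Whether counting used strand is not given in the sources used here, so reads in the overlaps cannot be assigned.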

How the data were processed

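Cells were Percoll-purified, and poly(A) RNA was sequenced from TruSeq v2 libraries, per the labels' protocols. The submitters' processing notes name Trimmomatic, TopHat, StringTie and HTSeq and the build mm9, with no versions; strand settings are not given in the sources used here. The authors deposited raw counts per gene, per start-site model and per transcript for each library. The gene table was the main one. Its 5 HTSeq summary lines entered neither library sizes nor tests. Of a library's records, those with multiple alignments included, 39.5% to 55.4% were in genes. Symbols were matched for 20358 of 21889 genes. No column belonged to an unmatched sample (0).

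Tests used edgeR 4.0.16 (R 4.3.3): filterByExpr (minimum count 10, minimum total 15; 15259 genes left), TMM scaling, 1 mean per group over all 15 libraries (10 residual degrees of freedom), quasi-likelihood F-tests for 10 pairwise contrasts and 1 test over the 4 ages, with Benjamini-Hochberg adjustment over all genes and calls at an FDR under 0.05. The fit was checked on simulated counts given 1 fixed spread for all genes, which does not measure its power at the spread of these data. Log2 CPM used a prior count of 2. A standard error is the log2 change over the root of F; intervals are 95%. CPM per kilobase used the exon length of a gene's counted transcripts, with bases shared by transcripts counted once. All 5 members were named, all genes of the associated list, the called gene with the largest change of each other list, and the 3 genes most correlated with each member, of which some are not reported here. Overlapping neighbours and P1 replicate 3 were singled out after values or positions were seen. The members and lists were chosen with earlier results of these data known. Alternatives were DESeq2 1.42.0, upper-quartile scaling, no filter, the groups compared alone, a replicate block, the other 2 tables, libraries by counting deficit (Tsnax gene-table share of transcript-table reads under 0.5) and leaving out each library; the fit on the 6 libraries with the deficit was chosen after seeing the data.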

Additional observations from a re-analysis of the deposited data

How the results depend on the processing

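Of 675 alternative values of single genes over the 10 contrasts, 658 kept their side of the threshold, 11 lost a call and 6 gained one. Of the 658, 618 also kept their sign; the other 40 are differences called neither in the reported fit nor in the alternative, with log2 values of at most 0.61 in size. The number of members called in P14 against P7 was 0 to 1 over the fits that leave out a library, 0 being without P7 replicate 2. In P14 against P1 it was 0 to 1 over those fits (1 without P1 replicate 3) and 1 over the libraries without the counting deficit. In MB against P7 it was 0 to 1 (1 without P7 replicate 3), and in MB against P14 it was 2 over the libraries without the deficit, Nfic being added. The call of Etv1 in P14 against E15.5, 1.37 (FDR 0.00523, edgeR), was lost over those libraries, at 1.07 (FDR 0.138). Start-site models could be matched for Nfia, Nfib and 1 short Etv1 model only, so no count of members was made from that table. The Etv1 model gave 1.11 for P14 against P7 (FDR 0.0663) and 0.71 for P14 against E15.5 (FDR 0.117, edgeR). Both of these Etv1 calls were thus lost there. The labels do not say whether replicate numbers pair the libraries. Of 30 same-numbered pairs, 7 had a correlation over 0.1 (median -0.01, highest 0.33), which cannot exclude a pairing in some groups. With the number as a replicate block, 4 members were called in P1 against E15.5, 0 in P7 against P1, 1 in P14 against P7, 0 in P14 against P1, 0 in MB against P7, 1 in MB against P14 and 5 over the ages, the counts without the block. Nfic in MB against P1 was not called under the block, at 1.02 (FDR 0.0537). P7 has no library outside the deficit set, so its contrasts with P1 and P14 have no value within a set. With 3 libraries a group, the upper 95% bounds of the NFI folds among P1, P7 and P14 run from 1.41 (Nfib, P14 against P7) to 3.46 (Nfix, P7 against P1).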
